A study of Homo sapiens with 101 samples.

Results

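The arrays described here compared SW620 cells carrying a short hairpin RNA against NGFR with SW620 cells carrying a control vector. SW620 is an established human colorectal cancer cell line from a lymph node metastasis, and its companion line SW480 comes from the primary tumour of the same case. The arrays were chosen by their titles: 6 with the NGFR hairpin, 6 with the empty pLKO vector and 6 with a non-target hairpin, 18 of the 101 arrays of the series. The wider series put hairpins against NGFR, CDK5, HRAS, MAP2K1, MAP2K2 and MAPK3 into both lines, and per the labels the genes that responded served to test a computed gene network. Both control groups carry a vector, so vector and selection, if any, are shared by all 18 arrays. The labels name 1 hairpin code for NGFR on 5 of the 6 arrays and none on replicate 2. Effects of that hairpin through NGFR and through other transcripts therefore cannot be told apart. The source name of hairpin replicate 1 is misspelt, and its title and cell line field both place it in SW620. The samples came in 3 rounds by their naming, replicate 1, replicate 2 and replicates 3 to 6, and all differences were taken within rounds. No label states that replicates 3 to 6 came from separate cultures, so p-values measure the spread between these samples, which may in part be technical.

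NGFR encodes the p75 neurotrophin receptor, a member of the tumour necrosis factor receptor family. It binds nerve growth factor and the other neurotrophins, acts together with TRK receptors or sortilin, and can signal towards survival, cell cycle arrest or death depending on its partners. It is best known from neurons and neural crest cells and is also made by some epithelial cells and tumours. Several of the genes below belong to the amino acid response, in which stress kinases slow general translation while the transcription factor ATF4 raises genes for amino acid synthesis, uptake and tRNA charging.

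The 18 array medians ran from 5.06 to 5.28 (log2), and no 2 of the 18 arrays held identical values. The array of hairpin replicate 1 stood apart in RNA quality. The difference between its 3 prime and 5 prime GAPDH probe sets was 3.82, against 0.056 to 0.40 on the other 17 arrays. The counts of called genes and the counts of some gene lists are given without it as well. Values without it are also given for MAP2K1 and H2BC21, which moved by over 1.5 times. VIL1, a colorectal epithelium marker that passed, moved from -0.25 to -0.15. Of the 4 VIL1 probe sets 2 passed lower and 2 passed higher. Of the 10 colorectal epithelium markers, KRT18, KRT19, KRT8 and EPCAM lay at or above the 98.7th percentile of genes. CDH17 and LGALS4 lay at the 35.5th and 21.1st percentiles. The 5 measured leukocyte markers had a median level of 4.70, with summed levels of 24.3 to 26.3 on hairpin arrays and 24.2 to 25.8 on control arrays. None of the 5 passed the test, and the highest of them, LYZ, reached only the 51.8th percentile. A fibroblast and an endothelial list had 1 member each past the threshold, COL3A1 (0.32) and VWF (-0.33), out of 6 and 5 measured.

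The NGFR transcript itself was low in SW620 and lower still with the hairpin. Hairpin arrays read 5.30 in replicate 1, 4.87 in replicate 2 and 4.01, 4.35, 4.15 and 4.72 in replicates 3 to 6. Empty vector arrays ran from 4.68 to 5.29 (median 4.93), and non-target arrays ran from 4.76 to 6.43 (median 4.90). Hairpin replicate 1 lay above the empty vector array of its round and hairpin replicate 6 lay above the lowest control of its round (4.68), while the other 4 hairpin arrays lay below every control of their round. The difference from the mean of both controls was -0.52 ± 0.12 (log2, standard error, 6 against 12 arrays), which is 69.8% of the control level (limma, adjusted p = 0.0028). It was -0.56 in replicate 1, -0.43 in replicate 2 and -0.53 in replicates 3 to 6. Without hairpin replicate 1 it was -0.51 (adjusted p = 0.0039, limma). The call ended in a fit with no term for round (adjusted p = 0.29, limma) and in replicates 1 and 2 alone (-0.49, adjusted p = 0.43, limma).

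The small size of this fall went with a low starting level. In SW620 controls NGFR lay at about the 32nd percentile of genes (medians 32.9 for empty vector and 32.1 for non-target arrays), and on hairpin arrays it had a median percentile of 24.8. In SW480 the control arrays read 8.93 to 11.33 and the NGFR hairpin arrays 5.58 to 6.76, a difference of -3.43. The fall in SW620 was smaller than that in SW480 by 2.91 ± 0.18 (limma, adjusted p = 3.42e-14). Against the other 5 hairpins in SW620 the NGFR hairpin arrays differed in NGFR by -0.23 ± 0.12, which did not pass (limma, adjusted p = 0.24). The CDK5 and MAPK3 hairpin groups had mean NGFR levels of 4.52 and 4.63, close to the 4.57 of the NGFR hairpin itself. Group means here and below are over all arrays of a group and were not taken within rounds. The CDK5 group in SW620 has 5 arrays and none of replicate 1. Its replicate 2 array read 5.39, beside 4.87 with the NGFR hairpin. In replicates 3 to 6 it read 4.27 to 4.37, beside 4.01 to 4.72.

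**Figure D1:**
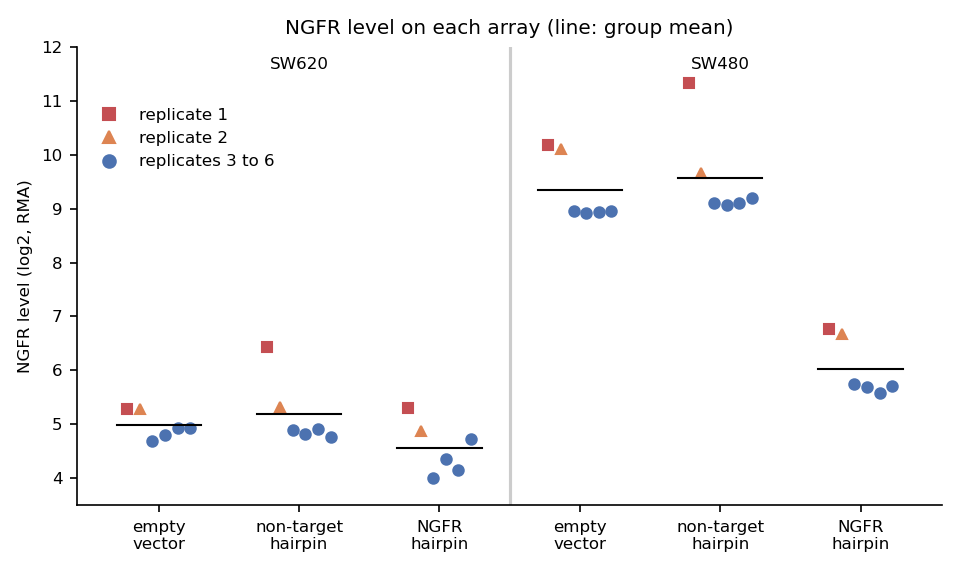
NGFR level (log2, RMA) on each array of the empty vector, non-target and NGFR hairpin groups of SW620 and SW480. Points are arrays, shapes mark the rounds and lines mark group means. All SW620 arrays lie below 6.5, and the difference of the hairpin group from its controls was -0.52 in SW620 and -3.43 in SW480.

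Across the transcriptome the hairpin arrays differed from the controls widely. Of 19775 genes tested, 6391 (32.3%) passed an adjusted p of 0.05 in limma, 3140 higher (15.9%) and 3251 lower (16.4%). Changes of 2-fold or more were rarer and leaned downward, with 193 genes lower (0.976%) and 81 higher (0.41%). Without hairpin replicate 1 the count of called genes was 8549 (43.2%), 4003 higher (20.2%) and 4546 lower (23%). All 6 hairpin arrays lay below every control of their round for 1358 genes (6.87%) and above for 1156 (5.85%). The median difference over all genes was 0.013, with quartiles of -0.15 and 0.14.

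The rounds did not give the same picture. Of the 6391 called genes, 4377 (68.5%) had the same sign in all 3 rounds. A term for the hairpin in replicates 3 to 6 differed from that in replicates 1 and 2 for 5944 genes (30.1%), and for 5740 (29%) without hairpin replicate 1. The median size of a difference was 0.41 in replicate 1, 0.20 in replicate 2 and 0.16 in replicates 3 to 6. Replicates 3 to 6 alone gave 10548 called genes and replicates 1 and 2 alone gave 55. In replicates 3 to 6 the non-target and empty vector controls themselves differed in 2346 genes, against 3 when all rounds were used. Round values are therefore given for many genes described by level and for some of those whose rounds lay far apart. A gene given without round values may also have differed between rounds. ATF3 lay at -2.54 and -2.32 in replicates 1 and 2 and at -0.77 to -0.67 in replicates 3 to 6. CCL20 lay at -1.87 and -0.15 in replicates 1 and 2, and SERPINE2 at -0.28 and -1.24.

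Amino acid response genes were lower, with the lowest median of the 31 gene lists used here. Of its 24 measured genes, 23 fell and none rose, against 16.4% of all genes lower, and the 24 had a median of -1.30. For 22 of them, all 6 hairpin arrays lay below every control of their round, against 6.87% of all genes. The median of the list was -1.93, -1.20 and -1.10 in replicate 1, replicate 2 and replicates 3 to 6. The same 23 to 0 split was counted without hairpin replicate 1, with a median of -1.05. With no term for round 20 of the 24 fell, where 504 of all 19775 genes were called lower. In replicates 1 and 2 alone 6 of the 24 fell, where 33 of all 19775 genes were called lower. In a bulk sample, less RNA per cell and fewer cells expressing a gene cannot be told apart.

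The following 3 promoter stretches are from genes that fell. They are shown because the amino acid response is known to act through a composite C/EBP and ATF element. ASNS and CHAC1 are in the amino acid response list, while IL20RB is outside it and among the 15 largest falls. A match in S100P, also outside the list, is not printed. The 3 stretches are therefore not the 3 list promoters counted below. TGATGNAA was searched on both strands from 250 bases before to 50 bases after each RefSeq start (GRCh38.p14), and the capitals mark the match.
ASNS (chr7:97872443-97872502, minus strand): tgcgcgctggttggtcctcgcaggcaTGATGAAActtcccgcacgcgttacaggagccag
CHAC1 (chr15:40953236-40953295, plus strand, match on the other strand): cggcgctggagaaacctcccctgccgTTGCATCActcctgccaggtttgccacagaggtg
IL20RB (chr3:136957881-136957940, plus strand): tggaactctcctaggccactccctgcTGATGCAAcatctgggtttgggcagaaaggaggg
The matches begin 68, 209 and 76 bases before the start. The letters were found in 3 of 21 amino acid response promoters (14.3%), in 14 of 144 promoters of genes lower by 2-fold or more (9.72%) and in 2 of 66 promoters of genes higher by 2-fold or more (3.03%). Among all genes tested 403 of 15384 promoters held them (2.62%), and among all RefSeq promoters read 1003 of 27305 (3.67%). A match describes the letters and is not evidence of binding.

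ASNS encodes asparagine synthetase, which makes asparagine from aspartate and glutamine. Its hairpin arrays read 7.97 in replicate 1, 8.17 in replicate 2 and 8.89 to 8.97 in replicates 3 to 6. The empty vector arrays read 11.93, 10.65 and 12.39 to 12.47 in the same order, and the non-target arrays 11.54, 10.60 and 12.33 to 12.36. No hairpin array overlapped a control array, and replicate 2 had the narrowest gap because its controls were lowest. The difference was -3.34 ± 0.11, or 9.84% of the control level (limma, adjusted p = 1.02e-12).

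DDIT4, an inhibitor of the growth kinase complex mTORC1, read 7.73, 7.18 and 8.43 to 8.48 on the hairpin arrays. Control arrays lay between 11.15 and 12.37, so the groups were far apart. The difference was -3.64 ± 0.17 (limma, adjusted p = 5.54e-11), and at -5.05 it was largest in replicate 2. TRIB3, a pseudokinase that dampens AKT and ATF4 signalling, read 9.67, 9.62 and 8.59 to 8.65 against controls of 11.43 or more. Its difference was -2.71 ± 0.11 (limma, adjusted p = 2.03e-11). CEBPB, a transcription factor that pairs with ATF4, fell by 2.41 ± 0.08 to levels of 8.59 to 9.09.

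Genes of serine synthesis and of amino acid transport fell with them. PHGDH, the first enzyme of serine synthesis from glycolysis, changed by -1.79 ± 0.06 and lay between -1.97 and -1.54 in the 3 rounds. The cystine carrier gene SLC7A11 changed by -1.65 ± 0.18, with -3.25 in replicate 1 and -1.27 in replicates 3 to 6. CHAC1, which degrades glutathione, changed by -1.86 ± 0.10 (limma, adjusted p = 5.15e-10). Named after their values were seen, ATF4 itself changed by -0.70 ± 0.05, DDIT3, a stress transcription factor, by -0.67 ± 0.08, and the tRNA synthetase genes SARS1 and GARS1 by -1.32 ± 0.09 and -0.996 ± 0.08. ALDH1L2, a mitochondrial folate enzyme gene, was the single member that did not pass (0.095, limma adjusted p = 0.23).

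**Figure D2:**
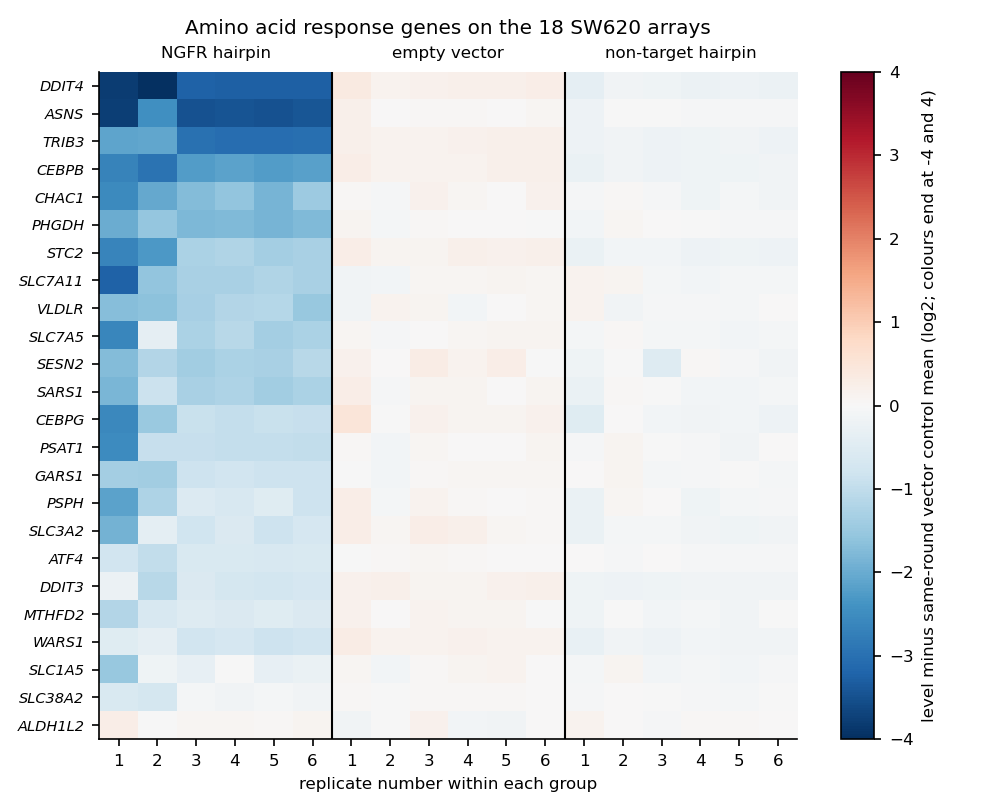
Heat map of the 24 measured amino acid response genes (rows) on the 18 SW620 arrays (columns), as log2 level minus the mean of the vector controls of the same round. The 6 hairpin columns are blue for 23 of 24 genes on average, while both control groups stay near 0.

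Outside that list the largest falls from the vector controls included secreted factors and stress genes. Several of them did not pass against the other 5 hairpins, as given below. INHBE, which encodes an activin subunit, had the largest fall of all named genes. Hairpin arrays read 3.67, 3.87 and 5.39 to 5.68, and controls read 7.05 to 7.28 in replicate 2 and 8.93 to 9.76 in the other rounds. The difference was -3.97 ± 0.21, or 6.38% of the control level (limma, adjusted p = 4e-10). GDF15, a stress-induced cytokine, read 6.79, 8.07 and 8.56 to 8.64 against 10.21 to 11.45, a difference of -2.48 ± 0.23. Replicate 1 drew this value out, at -4.56 against -1.99 in replicates 3 to 6, and without it the difference was -2.06.

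TUBB2B, a neuronal beta tubulin gene, changed by -3.17 ± 0.14, from controls of 7.56 to 8.95 to hairpin levels of 4.18 to 6.25. Its probe set is of a type that can also bind related tubulin transcripts. ASS1, which makes argininosuccinate for arginine synthesis, changed by -2.65 ± 0.17 and by -3.98 in replicate 1. IL20RB, a receptor chain for interleukins of the IL-20 family, lay at 4.45 to 4.71 on every hairpin array. Its controls moved instead, from 5.22 to 5.25 in replicate 2 up to 7.47 to 7.91 in replicates 3 to 6, so its difference ran from -0.79 to -3.11 between rounds.

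LRATD2 changed by -2.66 ± 0.11, ERN1, the endoplasmic reticulum stress sensor IRE1, by -2.34 ± 0.12, and S100P, a calcium-binding protein gene of many carcinomas, by -2.14 ± 0.11. ERRFI1, a feedback inhibitor of EGF receptors, changed by -2.25 ± 0.22, with -3.09, -3.81 and -1.65 in the 3 rounds. VEGFA, the vascular growth factor, changed by -2.12 ± 0.22, with -2.75, -3.81 and -1.53. BEX2 completes the 15 and is described with the neurotrophin genes. Each of the 15 lay below all same-round controls on all 6 hairpin arrays, which describes genes chosen for large falls of 1 sign in every round.

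**Figure D3:**
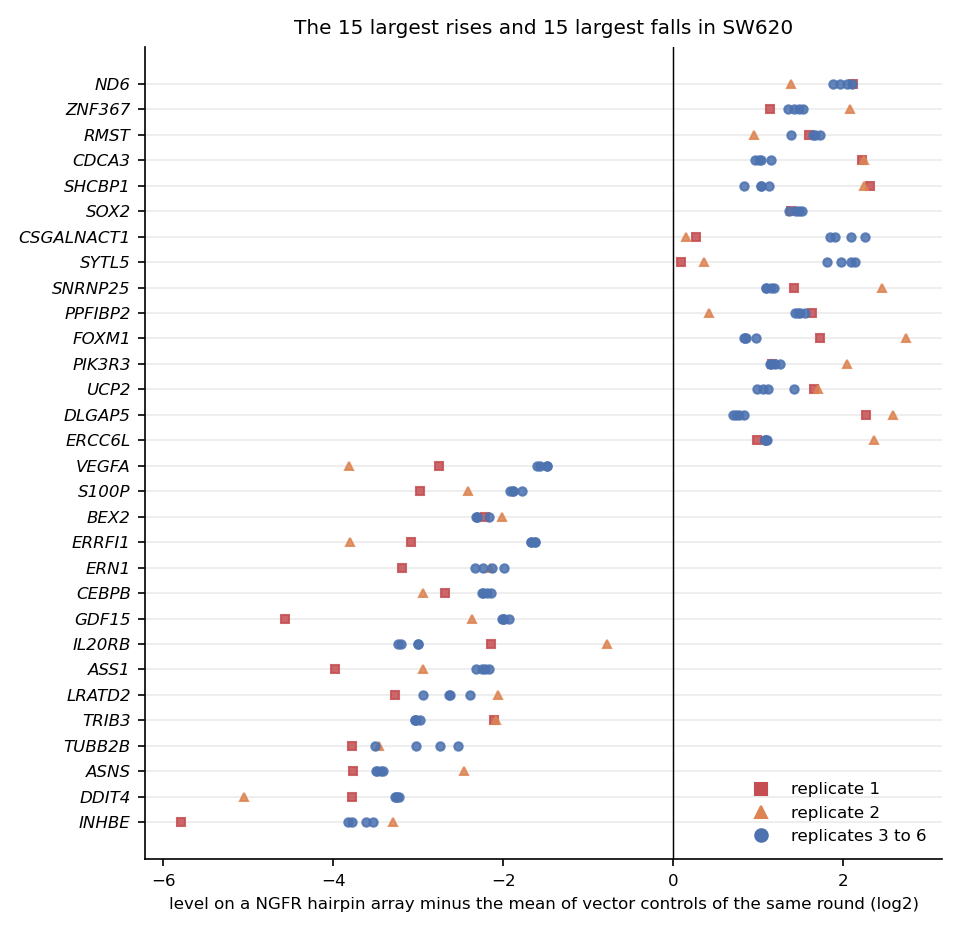
Differences of each of the 6 hairpin arrays from the mean of the vector controls of its round (log2) for the 15 largest rises and 15 largest falls with the same sign in each round. Falls reach -5.78 (INHBE, replicate 1) and rises 2.74 (FOXM1, replicate 2), and CSGALNACT1 and SYTL5 rise mainly in replicates 3 to 6.

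Stress and oxygen lists held some lower genes, read against 16.4% of all genes lower and 15.9% higher. In the unfolded protein response list 10 of 19 measured genes fell and 3 rose (68.4% called, median -0.34). Its median was -1.24 in replicate 1, -0.51 in replicate 2 and -0.00034 in replicates 3 to 6, and without hairpin replicate 1 the counts were 9 and 4 (median -0.14). Beside ERN1, CREB3L2, a transcription factor of the secretory pathway, changed by -1.39 ± 0.09, and EDEM1, which helps to clear misfolded glycoproteins, by -0.83 ± 0.07. Of 19 hypoxia and glycolysis genes 8 fell and none rose (42.1% called against 32.3% of all genes, median -0.44), with round medians of -0.28, -1.57 and -0.26 and a median of -0.13 when replicate 2 was left out. SLC2A1, the main glucose carrier gene, changed by -0.86 ± 0.09 and EGLN3, an oxygen-sensing hydroxylase gene, by -1.09 ± 0.19. EGLN3 lay at -2.60 in replicate 2 and -0.33 in replicate 1.

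Most measured transcripts downstream of RAS and ERK signalling were lower. Of 24 MAPK output genes 17 fell and none rose, against 16.4% of all genes lower (median -0.51, against 0.013 over all genes). On all 6 arrays 11 of the 24 lay below every same-round control, against 6.87% of all genes. Without hairpin replicate 1 the counts were 19 and 1, and with no term for round, where 504 of all 19775 genes were called lower, 4 fell. DUSP6, a phosphatase that switches off ERK, read 9.62, 8.30 and 10.39 to 10.59 on hairpin arrays against 10.40 to 10.73, 9.66 to 9.72 and 11.26 to 11.37 in controls. It changed by -0.91 ± 0.08 (limma, adjusted p = 9.85e-08). LIF, an interleukin-6 family cytokine, changed by -0.87 ± 0.06 and PLAUR, the urokinase receptor, by -0.90 ± 0.08. The immediate early list was mixed, with 5 of 17 genes lower and 2 higher (41.2% called against 32.3% of all genes). ATF3 changed by -1.28 ± 0.23, FOSB by 0.98 ± 0.13 and CCN1 by 0.46 ± 0.12, CCN1 with -0.028 in replicate 1.

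HRAS was the 1 gene among the targets of the other hairpins that rose. Hairpin arrays read 8.54 to 9.41 and controls 7.96 to 8.82, and within each round all hairpin arrays were above all controls. The difference was 0.61 ± 0.05 (limma, adjusted p = 1.74e-07) and lay between 0.59 and 0.68 in the 3 rounds. MAP2K1 passed at -0.30 ± 0.10 with all 6 arrays and at -0.14 ± 0.05 without hairpin replicate 1 (limma, adjusted p = 0.0235), and its round values were -1.11, -0.36 and -0.081. It did not pass without replicate 2, 3 or 6 (limma, adjusted p = 0.0705, 0.0554 and 0.0628). MAP2K2 passed at -0.25 ± 0.07, with 0.074, -0.080 and -0.38 by round, and did not pass without replicate 3, 5 or 6 (limma, adjusted p = 0.0752, 0.0793 and 0.0627). CDK5 (0.063) and MAPK3 (-0.12) did not pass, and MAPK3 passed without hairpin replicate 1 (-0.18, limma adjusted p = 0.0106).

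Cell cycle transcripts were higher as a group. Of 30 measured G2/M and mitosis genes 28 rose and none fell, against 15.9% of all genes higher, with a median of 0.94. Of 25 G1/S and replication genes 24 rose and none fell (median 0.78). Without hairpin replicate 1 the counts were 30 and 24. The G2/M median was 1.21 in replicate 1, 1.92 in replicate 2 and 0.52 in replicates 3 to 6, and the G1/S median 0.52, 1.63 and 0.69. The counts fell to 1 G2/M and 9 G1/S genes with no term for round, where 347 of all 19775 genes were called higher. In replicates 1 and 2 alone they were 8 and 0, where 22 of all 19775 genes were called higher.

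FOXM1, a transcription factor of mitotic genes, is given by level. Its hairpin arrays stayed between 9.11 and 9.39 in all rounds. Its controls read 7.41 to 7.68 in replicate 1, 6.57 to 6.74 in replicate 2 and 8.19 to 8.37 in replicates 3 to 6. The spread between rounds thus lay in the controls, and the difference was 1.33 ± 0.18 (limma, adjusted p = 1.71e-05). CDCA3, a mitotic entry gene, read 8.70 to 9.61 on hairpin arrays and rose by 1.43 ± 0.15, with 2.21, 2.24 and 1.04 by round. SHCBP1 rose by 1.43 ± 0.16 (2.32, 2.24 and 1.01 by round). DLGAP5, a spindle protein gene, rose by 1.31 ± 0.20, with 2.26, 2.58 and 0.76 by round, and ERCC6L, a DNA translocase of mitotic chromosomes, by 1.28 ± 0.13. Of the replication genes, ORC6, an origin recognition subunit, rose by 1.04 ± 0.10, CHAF1A, a histone chaperone, by 0.71 ± 0.06 and E2F2 by 0.63 ± 0.05.

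Histone transcripts on these arrays were higher in 9 of 12 genes and lower in none (median 0.61), against 15.9% of all genes higher, with 9 and 0 without hairpin replicate 1. H2BC4 rose by 1.05 ± 0.08, H4C8 by 0.51 ± 0.08 and H2AX by 0.85 ± 0.14. Clustered histone genes are near copies of each other, so signal may be shared between them. Cholesterol synthesis genes rose in 7 of 15 cases and fell in 2 (60% called against 32.3% of all genes, median 0.25). IDI1 rose by 1.04 ± 0.13, HMGCS1 by 0.86 ± 0.13 and LSS by 0.64 ± 0.09, each with its largest value in replicate 2 (2.00, 1.85 and 1.27).

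Other large rises formed no list of their own. ND6, a complex I subunit encoded in the mitochondrial genome, read 9.25, 7.42 and 10.18 to 10.39 on hairpin arrays. Controls read 6.97 to 7.30, 5.77 to 6.29 and 7.88 to 8.67, and the difference was 1.91 ± 0.13 (limma, adjusted p = 1.11e-08). Of the 24 measured oxidative phosphorylation genes, 2 rose and 2 fell. SOX2, a transcription factor of stem and neural cells, rose by the same amount in every round, 1.39, 1.38 and 1.45. It read 8.74, 8.82 and 10.51 to 10.67 against 7.34 to 7.36, 7.44 to 7.45 and 9.05 to 9.24, a difference of 1.43 ± 0.05 (limma, adjusted p = 1.75e-12).

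RMST, a long noncoding RNA of neural cells, rose by 1.49 ± 0.09, ZNF367 by 1.5 ± 0.09 and SNRNP25, of the minor spliceosome, by 1.40 ± 0.13. PIK3R3, a regulatory subunit of PI3 kinase, rose by 1.33 ± 0.10 and UCP2, a mitochondrial carrier, by 1.32 ± 0.13. CSGALNACT1, which starts chondroitin sulfate chains, rose by 1.42 ± 0.21, with 0.27, 0.15 and 2.02 in the 3 rounds. That probe set had a mean level of 4.13. The other CSGALNACT1 probe set was brighter on these 18 arrays, at 4.59, and did not pass (0.16, limma adjusted p = 0.13). THBS1, the matrix glycoprotein thrombospondin, had an equally large mean rise (1.92 ± 0.26) but lay at -0.12 in replicate 1, so it does not stand among the 15.

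The neurotrophin system was measured through 20 of 26 listed genes, of which 7 fell and 2 rose (45% called in either direction against 32.3% of all genes; median -0.14). Leaving out replicate 3 or replicate 6 left 5 falls and no rise. Among the receptors, NTRK2, the receptor of BDNF, read 3.98, 4.24 and 6.07 to 6.48 on hairpin arrays and changed by -0.29 ± 0.10 (limma, adjusted p = 0.027), with the opposite sign in replicate 2 (0.36). It did not pass when replicate 3, 4, 5 or 6 was left out (limma, adjusted p from 0.0548 to 0.17). NTRK3 (-0.084) did not pass. Of the ligands, BDNF passed at 0.22 ± 0.07 in the probe set used, which had a mean level of 3.88. It did not pass without hairpin replicate 1 (0.16, limma adjusted p = 0.077), nor when replicate 3, 4 or 6 was left out (limma, adjusted p from 0.0543 to 0.155). The other BDNF probe set was brighter on these 18 arrays, at 4.80, and showed -0.067 (limma, adjusted p = 0.665). The sortilin family members SORL1 (-0.046) and SORCS2 (-0.22) did not pass, nor did the co-receptor genes RTN4R (-0.22) and LINGO1 (-0.017). With hairpin replicate 1 left out SORCS2 passed at -0.34 (limma, adjusted p = 0.000301) and RTN4R at -0.28 (limma, adjusted p = 0.021).

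In the neurotrophin list, which also holds genes of p75 receptor partners, BEX2 had the largest difference from the vector controls. Its place in the list does not show that BEX2 itself binds the receptor. It read 6.70, 6.82 and 6.96 to 7.10 on the hairpin arrays against 8.36 to 9.46 in the controls, with no overlap. Its difference of -2.22 ± 0.10 (limma, adjusted p = 3.74e-11) was nearly the same in each round, -2.22, -2.02 and -2.27. BEX2 was low with every other hairpin in SW620 too. Its group means were 6.92 with the MAP2K1 hairpin, 7.07 with CDK5, 7.10 with HRAS, 7.38 with MAPK3 and 7.73 with MAP2K2, beside 6.92 with the NGFR hairpin and 9.25 and 9.04 with the vectors. Against those 5 hairpins it did not pass (-0.32 ± 0.21, limma adjusted p = 0.37). BEX1 passed at 0.20 ± 0.06 but not without replicate 2, 3 or 6 (limma, adjusted p from 0.0507 to 0.101). BEX3 (0.11), MAGED1 (0.19) and NDN (0.13) did not pass, and MAGED1 passed without hairpin replicate 1 (0.28, limma adjusted p = 0.00047). RIPK2, a kinase adaptor of the receptor, changed by -0.84 ± 0.12, with -0.35, -0.033 and -1.16 by round, and IRAK1 by -0.43 ± 0.11, with 0.29, 0.080 and -0.74 by round. IRAK1 did not pass when replicate 3, 4, 5 or 6 was left out (limma, adjusted p from 0.0552 to 0.0607). ADAM17, a protease that sheds the receptor, changed by -0.49 ± 0.08 and lay below all same-round controls on 6 of 6 arrays. PRDM4 changed by -0.26 ± 0.07, and TRAF6 (-0.080), ARHGDIA (-0.0085) and KIDINS220 (-0.20) did not pass. For KIDINS220 2 other probe sets passed with the opposite sign, as did 1 for SORL1.

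Epithelial junction genes were lower in 11 of 19 cases and higher in 1, against 16.4% of all genes lower and 15.9% higher (median -0.36), and in 13 and 0 without hairpin replicate 1. CDH1, which encodes E-cadherin, read 6.54, 7.77 and 8.19 to 8.38 on hairpin arrays against 8.21 to 9.78 in the controls. It fell by 1.45 ± 0.10 (limma, adjusted p = 1.02e-08), with -2.04, -1.08 and -1.40 by round. CLDN7, a claudin, changed by -1.31 ± 0.12 and MARVELD3, a tight junction protein gene, by -0.94 ± 0.09. Of the 10 colorectal epithelium markers 5 fell and none rose in the probe sets used, and for VIL1 2 other probe sets passed higher. Of 15 MHC class I genes 9 fell and 1 rose (66.7% called against 32.3% of all genes, median -0.25), with HLA-E at -0.57 ± 0.06, ERAP1 at -0.77 ± 0.12 (0.0037 in replicate 1) and PSMB8 at -0.50 ± 0.09. Cytosolic ribosomal protein genes were lower in 10 of 12 cases by small amounts (83.3% called, median -0.20), such as RPL3 (-0.44 ± 0.05) and RPS6 (-0.33 ± 0.04).

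**Figure D4:**
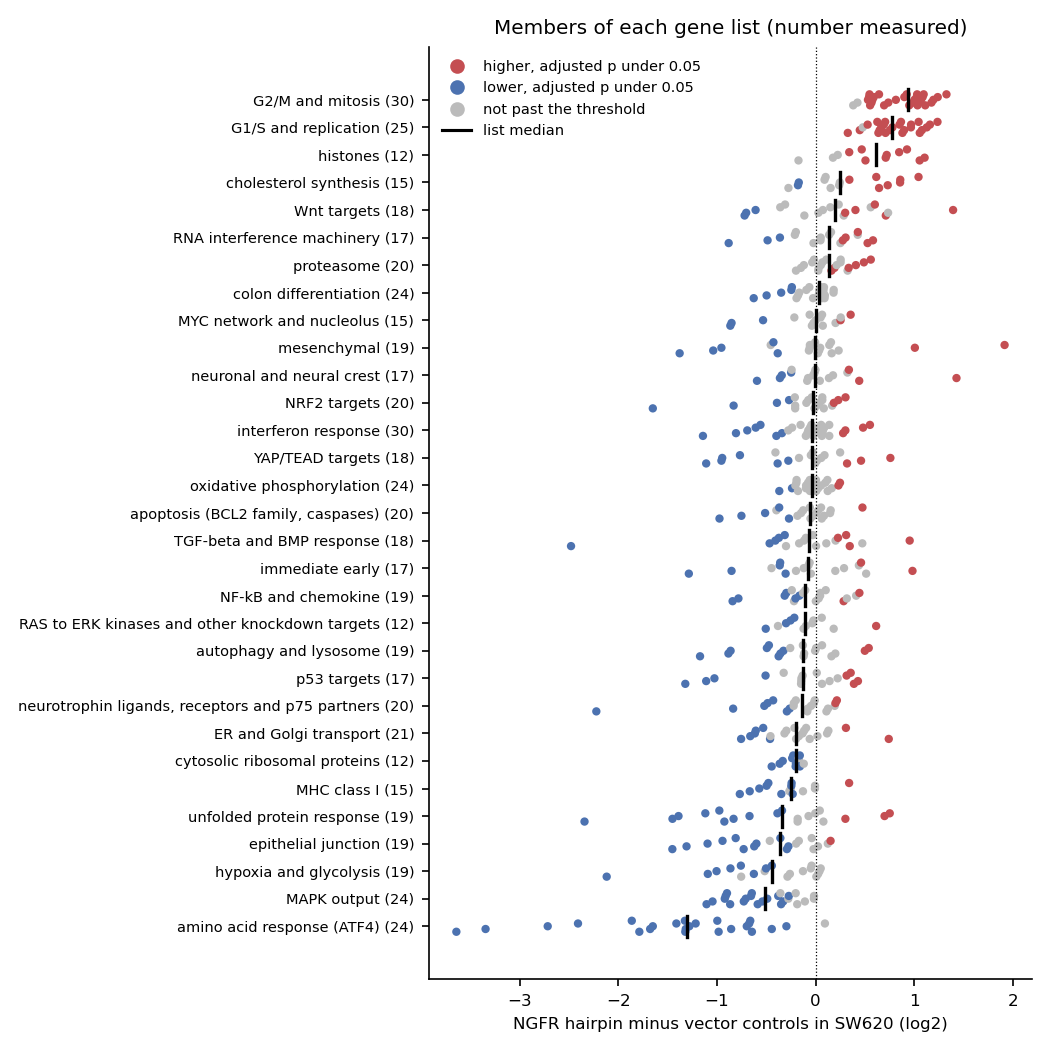
Difference between the NGFR hairpin and the vector controls in SW620 (log2) for each measured member of the 31 gene lists, with the list median as a bar and the number measured in brackets. The amino acid response lies lowest (median -1.30) and the G2/M list highest (0.94).

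The other lists moved in both directions or in few members, and their counts are to be read against 32.3% of all genes called, 16.4% lower and 15.9% higher. The share called was 36.7% in the interferon response list, 35% in the NRF2, 33.3% in the MYC, 30% in the apoptosis, 30% in the proteasome and 20.8% in the colon differentiation list, near or below that of all genes. It was 42.1% in the NF-kB list and highest among the lists of these paragraphs for autophagy and lysosome genes, at 52.6%. Interferon response genes were lower in 7 and higher in 4 of 30 cases (median -0.034), with ISG20 at -0.69 ± 0.08 and IRF1 at -0.61 ± 0.09. The NF-kB and chemokine list had 6 lower and 2 higher of 19, with CXCL3 at -0.84 ± 0.12 and CCL20 at -0.78 ± 0.14. In the RNA interference list, 5 of 17 genes rose and 3 fell, DICER1 among the rises (0.53 ± 0.06) and AGO4 among the falls (-0.88 ± 0.11). In the Wnt target list 5 of 18 rose and 3 fell, with LEF1 at 0.60 ± 0.11 (-0.13 in replicate 1) and the progenitor marker TNFRSF19 at 0.71 ± 0.06. CD44 changed by -0.70 ± 0.13 in its brightest probe set, and of its 13 probe sets 1 passed with the opposite sign.

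Among the p53 targets 4 rose and 4 fell of 17. The falls were SESN2 (-1.32 ± 0.09), a stress-induced inhibitor of mTORC1 that is also in the amino acid response list, GADD45A (-1.11 ± 0.08), a growth arrest gene, TNFRSF10B (-1.02 ± 0.09), a TRAIL receptor gene, and, named after its value was seen, CDKN1A (-0.51 ± 0.06), which encodes the cell cycle inhibitor p21. Autophagy and lysosome genes fell in 8 of 19 cases and rose in 2, with WIPI1 at -1.17 ± 0.12 and CTSB at -0.88 ± 0.07. The proteasome list had 6 of 20 higher and none lower, with PSMA7 at 0.49 ± 0.05. The mesenchymal list had 5 lower and 2 higher of 19, among them SERPINE2 (-1.38 ± 0.16) and TGFBI (-1.04 ± 0.15). In the TGF-beta and BMP list 5 of 18 fell and 4 rose, BMP4 (0.95 ± 0.14, with -0.21 in replicate 1) among the rises, and ID1 (-0.47 ± 0.09) among the falls. In the apoptosis list 5 of 20 fell and 1 rose, BOK (-0.97 ± 0.14, with 0.10 in replicate 1) and BAD (0.48 ± 0.06) among them.

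The YAP/TEAD list had 6 of 18 lower and 3 higher, with IGFBP3 at -0.95 ± 0.16 and -2.13 in replicate 2. In the ER and Golgi transport list 6 of 21 fell and 2 rose, with LMAN1, a cargo receptor, at -0.66 ± 0.08 and SAR1A, a coat GTPase gene, at 0.74 ± 0.06. NRF2 targets were lower in 4 and higher in 3 of 20 cases, with the drug efflux gene ABCC3 at -0.83 ± 0.08. The MYC and nucleolus list had 3 of 15 lower and 2 higher, MXI1 (-0.86 ± 0.13) among the falls and NCL, nucleolin (0.25 ± 0.05), among the rises. Colon differentiation genes fell in 5 of 24 cases and rose in none, and TFF1 (-0.50 ± 0.14) had positive values in replicates 1 and 2 (0.43 and 0.019) and did not pass without replicate 3, 4, 5 or 6 (limma, adjusted p from 0.0611 to 0.0918). The neuronal and neural crest list had 4 lower and 3 higher of 17, with L1CAM at -0.59 ± 0.10 and NES, nestin, at 0.44 ± 0.08. Of 12 RAS to ERK kinase genes and hairpin targets 4 fell and 1 rose, with SOS2, a RAS exchange factor gene, at -0.51 ± 0.07.

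The comparison with the other 5 hairpins asked what set the NGFR hairpin apart from hairpins against CDK5, HRAS, MAP2K1, MAP2K2 and MAPK3 in SW620. It shared the 6 NGFR hairpin arrays with the comparison above but used 29 other hairpin arrays in place of the vector controls. HRAS, MAP2K1, MAP2K2 and MAPK3 are themselves part of RAS to ERK signalling. For genes linked to ERK, effects of those hairpins and of the NGFR hairpin cannot be told apart in this comparison. Here 2399 genes passed (12.1%), 1250 higher (6.32%) and 1149 lower (5.81%), and 72 differed by 2-fold or more (0.364%). Without hairpin replicate 1 the count was 2286. Without the 3 arrays of degraded RNA the count was 4217, and in replicates 3 to 6 alone it was 9058. These 3 are NGFR hairpin replicate 1 and the replicate 2 arrays of the MAP2K1 and MAPK3 hairpins. The GAPDH differences of the MAP2K1 and MAPK3 arrays were 6.04 and 2.95. Values against the other hairpins given without hairpin replicate 1 still hold both of those arrays. Leaving out 1 replicate number at a time gave 3280, 5210, 1142, 1214, 1263 and 1110 genes, in the order of the numbers. Genes past both comparisons in the same direction numbered 1240 (6.27%), 571 higher (2.89%) and 669 lower (3.38%).

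Cell cycle genes did not pass in this comparison, with 1 exception. None of the 30 G2/M genes passed in either direction (median -0.091), and of the G1/S genes 1 of 25 was higher (median 0.028). FOXM1 differed by 0.18 ± 0.25 and SOX2 by 0.00014 ± 0.18. MAPK output genes were 3 higher and 2 lower of 24 (median 0.050), and epithelial junction genes showed none past the threshold. DDIT4 differed by -0.49 ± 0.34 (limma, adjusted p = 0.40) and TUBB2B by -0.68 ± 0.29 (limma, adjusted p = 0.13). GDF15 (-0.40), ASS1 (-0.43), ERRFI1 (-0.45), S100P (-0.28) and VEGFA (-0.40) did not pass (limma, adjusted p from 0.138 to 0.529). IL20RB (-0.83), ERN1 (-0.97) and LRATD2 (-0.65) passed, LRATD2 not without hairpin replicate 1. Of the large rises ND6 (0.59), ZNF367 (0.43), SNRNP25 (0.0032) and UCP2 (0.43) did not pass. RMST (0.57), PIK3R3 (0.46) and CSGALNACT1 (0.98) passed. HRAS (0.46 ± 0.30) did not pass, and its comparison includes the HRAS hairpin arrays.

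Part of the amino acid response was lower with the NGFR hairpin than with other hairpins too. Of 24 genes 12 were lower and 1 higher (median -0.40), against 5.81% of all genes lower. These counts became 6 and 1 without hairpin replicate 1 (median -0.17). ASNS had group means of 9.50 to 9.98 with the other 5 hairpins, 8.64 with the NGFR hairpin and 12.05 and 11.92 with the vectors. The other hairpin groups thus lay between the NGFR hairpin and the vector controls. Its difference from the other hairpins was -1.10 ± 0.18 (limma, adjusted p = 2.63e-05). INHBE differed by -1.20 ± 0.30 with all arrays and by -0.77 ± 0.28 without hairpin replicate 1, where it did not pass (limma, adjusted p = 0.0701). TRIB3 differed by -0.78 ± 0.15, CEBPB by -0.73 ± 0.17 and PHGDH by -0.57 ± 0.13. The MAP2K2 hairpin group reached nearly the same mean INHBE level (5.16) as the NGFR hairpin group (4.94).

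Most histone genes and some immediate early genes were higher with the NGFR hairpin than with the others. Of 12 histone genes 8 were higher and none lower (median 0.68), against 6.32% of all genes higher. Of 17 immediate early genes 7 were higher, none was lower and 10 did not pass (median 0.38). Without hairpin replicate 1 the counts higher were 7 of 12 histone genes and 10 of 17 immediate early genes, and none was lower. Against the vector controls 2 of the 17 immediate early genes were higher and 5 lower. From the other hairpins H2BC21 differed by 1.46 ± 0.25, H2BC4 by 0.99 ± 0.14 and FOSB by 1.19 ± 0.14. For H2BC21 the difference from the vector controls was 2.02 in replicate 1 and 0.21 and 0.52 in the other rounds. Hairpin replicate 1 is the array of low RNA quality among the 18. Without it H2BC21 differed by 0.46 ± 0.08 from the vector controls, where it had been 0.72 ± 0.16, and by 1.39 ± 0.27 from the other hairpins (limma, adjusted p = 0.000367).

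PPFIBP2, a liprin of cell adhesion sites, read 6.76, 5.84 and 7.85 to 7.96 with the NGFR hairpin. Its group mean was 7.37, against 5.36 to 6.73 in the other 5 hairpin groups and 5.86 and 6.21 in the vector groups. It differed from the other hairpins by 1.35 ± 0.13 (limma, adjusted p = 3.27e-09) and from the vectors by 1.33 ± 0.13. SYTL5, of vesicle transport, read 4.90 and 4.85 in replicates 1 and 2 and 6.42 to 6.74 in replicates 3 to 6, where all controls lay at 4.39 to 4.87. Its difference from the other hairpins was 1.35 ± 0.17.

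DIO3, which inactivates thyroid hormone, MAP3K8, a kinase above ERK, and DNAH12, an axonemal dynein, were also among the 6 largest, at 1.69 ± 0.25, 1.44 ± 0.21 and 1.33 ± 0.18. For these 3 genes the difference from the vector controls lay in replicates 3 to 6 (1.64, 1.45 and 1.28), and in replicate 2 each was negative (-0.26, -0.24 and -0.13). In replicate 1 the values were -0.38, 0.13 and 0.26. Lower than with other hairpins were XK (-1.63 ± 0.23), a membrane transport protein gene, FGF13 (-1.46 ± 0.18), CA2, carbonic anhydrase 2 (-1.37 ± 0.22), the splicing regulator MBNL3 (-1.37 ± 0.21) and CUTA (-1.32 ± 0.18). Their differences from the vector controls in replicate 1 were -0.90, -1.39, 0.11, 0.13 and 0.32. In replicate 2 they were 0.47, 0.097, 0.25, 0.32 and -0.19, and in replicates 3 to 6 -1.56, -1.40, -1.03, -1.68 and -2.12. Replicates 1 and 2 alone gave 0 called genes in this comparison (limma), and 1598 with an unadjusted p under 0.05.

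**Figure D5:**
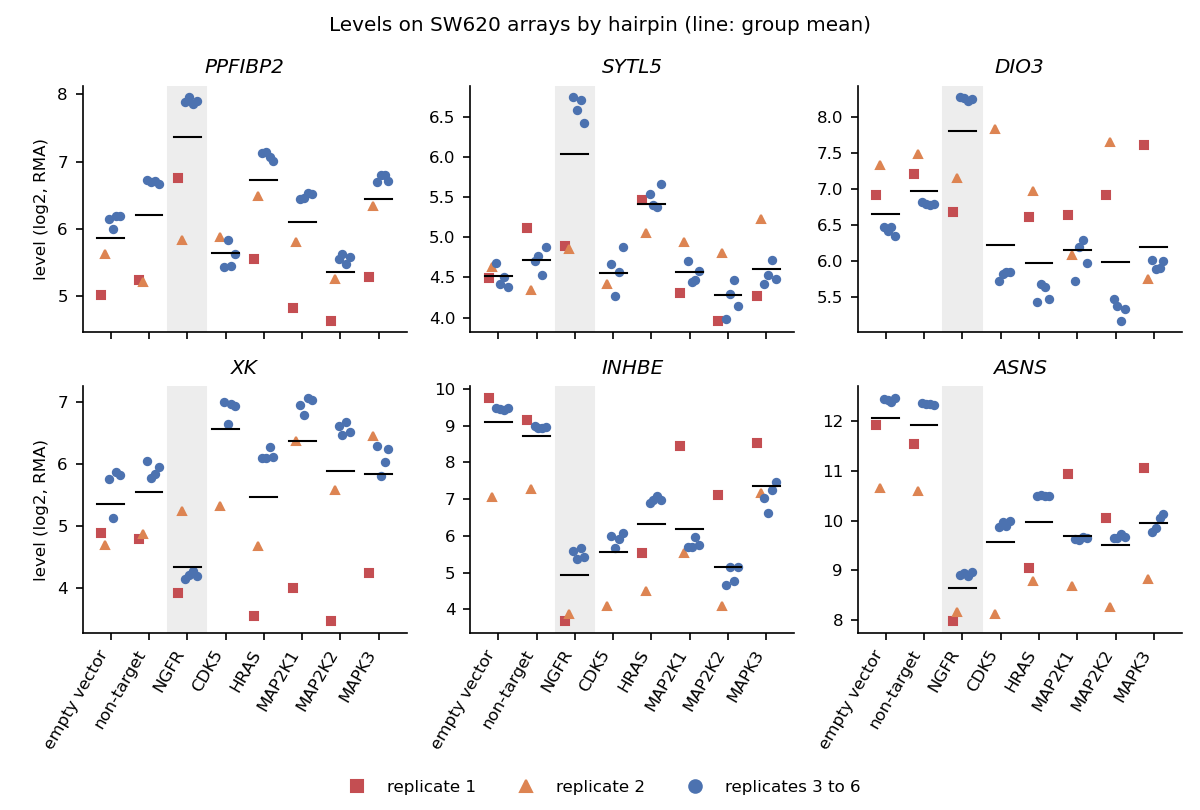
Levels (log2, RMA) of 6 genes on the SW620 arrays of 8 groups, with the NGFR hairpin shaded, points for arrays, shapes for rounds and lines for group means. ASNS and INHBE have their highest group means in the 2 vector groups, while the group means of PPFIBP2, SYTL5 and DIO3 are highest with the NGFR hairpin and that of XK lowest. For SYTL5, DIO3 and XK the NGFR hairpin arrays of replicates 3 to 6 set this order, and for PPFIBP2 that of replicate 1 does too (6.76, against 5.55 or less in its round).

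SW480, which has far more NGFR transcript, allowed a test of whether the change differed between lines. The SW620 difference minus the SW480 difference passed for 6742 genes (34.1%), 3140 higher and 3602 lower, and for 7687 without hairpin replicate 1. NGFR led the positive differences (2.91), followed by AK5, an adenylate kinase (2.55 ± 0.20), and ND6 (2.53 ± 0.24). AK5 was higher with the hairpin in SW620 (1.12, with -0.21 in replicate 2) and lower in SW480 (-1.43). KRT13, a keratin (2.36 ± 0.14), and TNFRSF11B, a decoy receptor (2.31 ± 0.31), follow. KRT13 differed in SW480 (-2.33), while on the 18 SW620 arrays it lay at 3.47 to 4.28, at the 9.28th percentile of genes. A fall of KRT13 in SW620 could not be read at that level (0.031, limma adjusted p = 0.80). TNFRSF11B lay at the 18.8th percentile in SW620.

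The largest negative differences were those of DEFA5, a Paneth cell defensin (-5.23 ± 0.24), INHBE (-4.06 ± 0.35), ASNS (-3.89 ± 0.25), DDIT4 (-3.69 ± 0.32) and EDN3, an endothelin (-3.65 ± 0.26). DEFA5 rose in both lines, by 0.68 in SW620 and 5.90 in SW480, and EDN3 rose in SW480 (3.77) and did not pass in SW620 (0.13). The amino acid response differed as a group, with 22 of 24 genes lower in SW620 than in SW480 and none higher, against 18.2% of all genes lower. In SW480 itself 7871 genes passed against the vector controls (39.8%, with 19.6% lower and 20.2% higher). There 8 amino acid response genes fell and 6 rose (median -0.028), and INHBE (0.088), DDIT4 (0.050) and ASNS (0.54) did not pass. INHBE lay at the 19.6th percentile of genes in SW480, so a fall could not be read at that level. Vector group means of DDIT4 were 8.54 and 8.28 in SW480, beside 11.99 and 11.53 in SW620. Those of ASNS were 10.24 and 10.05, beside 12.05 and 11.92. How far these starting levels account for the difference between lines was not tested. Cell cycle genes differed the other way, with 23 of 30 G2/M and 24 of 25 G1/S genes higher in SW620 than in SW480, against 15.9% of all genes higher.

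BEX2 (-0.23) did not pass in SW480, and its change differed between lines by -2.0 ± 0.18. SOX2 rose in SW480 too (0.85), and its lines did not differ past the threshold (0.58 ± 0.25, limma adjusted p = 0.069). TGFBI, CLDN7 and S100P fell in both lines, by 1.04, 1.31 and 2.14 in SW620 and with -1.85, -1.10 and -1.33 in SW480.

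The non-target and empty vector arrays of SW620 differed in 3 genes (0.0152%), all lower with the non-target hairpin, and in 1010 (5.11%) at an unadjusted p under 0.05. TULP3, a ciliary transport gene, differed by -1.04 ± 0.13, SKA2, of the kinetochore, by -0.62 ± 0.09 and BIN1, of membrane curvature, by -0.52 ± 0.08. The NGFR hairpin lay above the mean of both controls for SKA2 (0.64 ± 0.08) and BIN1 (0.24 ± 0.07), and BIN1 showed -0.018 against the empty vector alone and did not pass without replicate 6 (limma, adjusted p = 0.0583). For NGFR the non-target and empty vector groups differed mainly in replicate 1, where they read 6.43 and 5.29.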

How the data were processed

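The 18 arrays are Affymetrix arrays of total RNA, 1 sample per array. The authors deposited log2 levels made with RMA, which corrects background, quantile-normalizes arrays and summarises each probe set, per the submitters' processing notes. Whether all arrays were normalized together is not given in the sources used here. They were used without further normalization. Of 54675 probe sets, 41097 name 1 gene, 1801 name several and 11777 name none, and the last 2 kinds were left out. Each of 19775 genes is its brightest probe set over all 101 arrays, with no filter on dim genes. No genome was used; promoters come from a RefSeq table.

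Group and round were fitted in R 4.3.3 with limma 3.58.1 (lmFit and a trended, robust eBayes), with 13 residual degrees of freedom in the main fit. Two-sided p-values were adjusted over all genes by Benjamini-Hochberg, and 0.05 was the threshold. A 2-fold change is 1 on the log2 scale. The comparisons were the NGFR hairpin against the mean of both vector controls, against the other 5 hairpins (47 SW620 arrays in the fit), the SW620 difference minus the SW480 difference (36 arrays), and non-target against empty vector. Other fits varied the round term, the control, the arrays, the rounds, the probe sets, the dim gene filter (40th percentile) and a second quantile normalization. The steps were tested on simulated data. The number of arrays limits the precision.

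Named genes are NGFR and the neurotrophin list, the 15 largest rises and 15 largest falls past the threshold with 1 sign in all 3 rounds, up to 3 members with the smallest p of each of 31 lists (591 of 655 genes measured), the 6 largest each way against other hairpins that also pass against the vectors, the 5 largest each way between lines, up to 3 each way between controls, and the hairpin targets. Genes without a usual symbol were passed over. The members, lists and rule were chosen with earlier results of these data known. Figures used Python 3.11.15 with matplotlib 3.10.9.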

Additional observations from a re-analysis of the deposited data

Results flagged for a closer look

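With Dixon's test, 12 of 36 sets of 6 values had 1 array far from the other 5. Chance flags about 1 in 20 where each of the 6 arrays is equally likely to stand apart. Here replicates 3 to 6 came from 1 round, so that rate cannot be used to judge the 12. The non-target array of replicate 1 stood out in NGFR (6.433), and without it the NGFR difference was -0.45. The GAPDH 3 prime minus 5 prime difference of hairpin replicate 1 was 3.818.

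Hairpin replicate 1 was also the farthest array for the differences of INHBE (-5.785), GDF15 (-4.564) and ERN1 (-3.192). Hairpin replicate 2 was the farthest for DDIT4 (-5.047), ASNS (-2.459), ND6 (1.387), SNRNP25 (2.45), PPFIBP2 (0.4225), PIK3R3 (2.042) and ERCC6L (2.357). For each of these 10 genes all 6 hairpin arrays lay on the same side of the controls. These genes were chosen for large changes of 1 sign in every round, so that agreement was largely built into the choice.

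The change in SW620 differed from that in SW480 by the test of the difference in limma for NGFR (2.915), AK5 (2.549), ND6 (2.527), KRT13 (2.36), TNFRSF11B (2.313), DEFA5 (-5.226), INHBE (-4.059), ASNS (-3.885), DDIT4 (-3.69) and EDN3 (-3.649). The hairpin difference in replicates 3 to 6 differed from that in replicates 1 and 2 for 5944 genes.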

How the results depend on the processing

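Against the vector controls, the count of 6391 called genes was 851 with no term for round, 10548 in replicates 3 to 6, 55 in replicates 1 and 2 and 2798 with arrays averaged in pairs by name ending. It ranged from 4720 to 8885 when each replicate number was left out. The difference in NGFR kept its sign throughout, from -0.42 with the empty vector alone to -0.62 with the non-target hairpin alone, and from -0.47 to -0.60 with replicates left out. It did not pass with no term for round (-0.52, adjusted p = 0.29) or in replicates 1 and 2 (-0.49).

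Against the other hairpins, the 2399 genes became 357 with no round term, 9058 in replicates 3 to 6, 0 in replicates 1 and 2 and 193 with averaged pairs, and without the 3 arrays of degraded RNA, an alternative chosen after seeing the data, 4217. Leaving out a replicate number gave 1110 (replicate 6) to 5210 (replicate 2). Between lines, the 6742 genes became 970, 10260, 115 and 3348 under the first 4 of these settings, and 5157 to 8314 with a replicate left out. Non-target against empty vector gave 3 genes, 0 with no round term, with a replicate block, in replicates 1 and 2 or with averaged pairs (105, 707, 84 and 347 at an unadjusted p under 0.05), 2346 in replicates 3 to 6, 1 with all SW620 arrays in the fit, 7 without dim genes, 11 after a second quantile normalization, and 0 to 117 with a replicate left out.

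A replicate block in place of round gave 5371, 2130 and 5930 genes in the first 3 comparisons, and adjusted p = 0.0070 for NGFR (limma). Replicate numbers did not pair samples: in replicates 3 to 6, deviations of same-numbered arrays of other groups correlated with a median of -0.0063 (12 pairs, -0.23 to 0.24).

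BIN1 turned sign with the empty vector alone (-0.018). In replicates 1 and 2 alone 7 genes turned sign, IRAK1 (0.18), CA2 (0.18), TFF1 (0.22), DIO3 (-0.32), MAP3K8 (-0.053), MBNL3 (0.22) and CUTA (0.064). Of the 134 named genes called against the vector controls, NGFR aside, 68 kept their call and 66 lost it with no round term. In replicates 1 and 2 alone 18 kept it and 109 lost it. The cause was not tested. Signal over background limits what can be read of dim genes, NGFR in SW620 among them.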

Other observations

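Non-transduced SW620 cells enter none of the comparisons, and their 3 arrays (replicates 1, 2 and 7) are given as values. For ASNS, the array of replicate 1 read 8.48, beside 11.7 for the mean of the vector controls and 7.97 for the NGFR hairpin of that round. The array of replicate 2 read 11.2, beside 10.6 and 8.17, and that of replicate 7 read 12.2. INHBE followed the same order, with 3.97, 8.25 and 8.71 on the 3 non-transduced arrays. On the array of replicate 1 it lay near the hairpin (3.67) and on that of replicate 2 above the controls (7.17).

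FOXM1 read 10.1, 7.27 and 9.05 on the non-transduced arrays, with controls of 7.55 and 6.66 and hairpin levels of 9.27 and 9.39 in replicates 1 and 2. TUBB2B read 4.39, 7.23 and 7.31 and BEX2 read 5.80, 8.48 and 8.99, so in both genes the array of replicate 1 was the low one. NGFR read 5.34, 5.73 and 4.92.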
